A study of Rattus norvegicus with 24 samples.

Results

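The genes described here encode enzymes that break down valine, isoleucine and propionate in the mitochondrion. The set was defined by name and holds 9 genes: Acad8, Acadsb, Hibch, Hibadh, Aldh6a1, Hsd17b10, Pcca, Pccb and Mcee. Each was represented by the transcript cluster (a probe group of the array for a whole gene or a stretch of it) whose platform annotation gave that gene as its only symbol. Acadsb had 2 such clusters and was represented by the brighter. The 9 genes were found among 22037 genes with such a cluster, and 9 of 9 were among the 16031 genes bright enough to be tested. Expression was measured on Affymetrix arrays in the apex of the left ventricle of male Wistar rats (RccHan, an outbred stock) aged 7 to 8 weeks. The animals received metformin, a biguanide used against type 2 diabetes, by gavage at 800 mg/kg, or the vehicle of ethanol, Kolliphor and tap water, for 1, 3 or 14 days. The 6 groups, control and metformin on each day, held 4 arrays each, with 1 animal per array; the design gives 5 animals per group, of which 4 are analysed here.

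Valine and isoleucine are first transaminated and oxidatively decarboxylated by enzymes that they share with leucine, and then pass through separate routes in the mitochondrial matrix. In the valine route, isobutyryl-CoA dehydrogenase (Acad8), 3-hydroxyisobutyryl-CoA hydrolase (Hibch), 3-hydroxyisobutyrate dehydrogenase (Hibadh) and methylmalonate semialdehyde dehydrogenase (Aldh6a1) act in that order and end at propionyl-CoA. In the isoleucine route, short/branched chain acyl-CoA dehydrogenase (Acadsb) and 3-hydroxy-2-methylbutyryl-CoA dehydrogenase (Hsd17b10) precede a thiolase that yields acetyl-CoA and propionyl-CoA. Propionyl-CoA carboxylase, a biotin enzyme of alpha (Pcca) and beta (Pccb) subunits, and methylmalonyl-CoA epimerase (Mcee) carry propionyl-CoA towards succinyl-CoA, an intermediate of the citric acid cycle.

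Levels are log2 intensities and differences are metformin minus control on that scale, with n = 4 per arm. Calls were made in limma where the adjusted p was under 0.05, with Benjamini-Hochberg adjustment over the 16031 genes tested, and SE and interval are those of the moderated fit. The arrays had log2 medians of 4.68 to 4.95 over all features and correlated with each other at 0.984 to 0.992. Precision is limited by how many arrays there were. The 6 tested cardiomyocyte markers had a mean level of 17.2 to 17.3 on each array. Actc1 and Pln reached 19.88, near the top of the scale. For the mean of the 3 days all 6 lay below control (median -0.01), with 0 called. Ryr2 ranged from 17.20 to 17.62 and was lower with metformin on each day. The liver markers Alb and Serpina1 did not pass the filter on low values, while Apoa1 and Ttr did. For the mean of days Apoa1 was called higher, beside 4.42% of all genes called in either direction. Its means were 5.49, 5.43 and 5.41 in controls and 5.64, 5.58 and 5.89 with metformin. Ttr went the other way and was not called. Its means on days 1, 3 and 14 were 7.90, 8.15 and 8.06 in controls and 7.85, 7.64 and 8.00 with metformin. Of fibroblast, endothelial and smooth muscle markers 0 were called on any day. Their median differences on day 3 were 0.33 for 5 endothelial markers (4 higher) and 0.43 for 4 smooth muscle and pericyte markers (3 higher). On day 14 these medians were -0.13 (4 lower) and -0.07 (3 lower). The 5 fibroblast markers lay above 0 on day 1 (median 0.17) and below 0 on day 14 (median -0.19), so the direction of these markers changed between days. Their part in the results was not tested. Genes of skeletal muscle were 2.08 above their mean on the array of control day 1 replicate 4 and within -0.31 to 0.16 of it on the others. Red cell genes were 1.36 above their mean on that array and 1.51 above it on control day 3 replicate 2, and results that change without these arrays are given with their values.

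Promoters of the 3 genes that were called or had arms without overlap on a day are printed here, since the results turn on them. They run from 250 bases before to 50 bases after the transcription start, on the gene's strand, in the rat assembly GRCr8 of RefSeq. The windows are chr6:109829676-109829975 for Aldh6a1, chr8:110520137-110520436 for Pccb and chr8:33665493-33665792 for Acad8, and all lie on the minus strand. Capitals mark matches, on either strand, to CCAAT, to the GC box GGGCGG and to the NRF1 motif GCGCATGCG.
Aldh6a1: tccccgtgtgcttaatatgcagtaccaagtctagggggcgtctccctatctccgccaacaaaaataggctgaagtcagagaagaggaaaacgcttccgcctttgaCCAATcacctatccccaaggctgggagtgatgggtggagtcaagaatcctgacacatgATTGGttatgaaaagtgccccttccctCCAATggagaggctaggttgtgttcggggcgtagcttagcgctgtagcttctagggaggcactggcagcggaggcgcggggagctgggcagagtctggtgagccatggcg
Pccb: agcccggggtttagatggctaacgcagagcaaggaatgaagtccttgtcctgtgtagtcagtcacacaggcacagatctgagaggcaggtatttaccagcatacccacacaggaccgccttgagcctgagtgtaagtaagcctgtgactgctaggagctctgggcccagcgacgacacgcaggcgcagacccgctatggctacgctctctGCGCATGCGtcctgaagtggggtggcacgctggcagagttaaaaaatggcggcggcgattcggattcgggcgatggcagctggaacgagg
Acad8: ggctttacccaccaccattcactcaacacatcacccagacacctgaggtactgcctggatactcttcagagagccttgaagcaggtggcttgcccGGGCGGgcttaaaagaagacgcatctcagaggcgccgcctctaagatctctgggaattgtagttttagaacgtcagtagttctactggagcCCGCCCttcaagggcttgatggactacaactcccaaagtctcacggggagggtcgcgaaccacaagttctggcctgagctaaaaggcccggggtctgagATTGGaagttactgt

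The Aldh6a1 window held 3 CCAAT matches, beginning at offsets -145, -87 and -60 from the start, of which the middle one was on the opposite strand. CCAAT was present in the windows of 6 of the 9 genes and in 37.5% of 33469 rat promoters of the same length. The GC box was present in 6 of 9 windows and in 33.1% of all promoters. Pccb alone among the 9 held GCGCATGCG, at offsets -40 to -32, a match that 1.52% of all promoters shared. The estrogen-related receptor motif TNAAGGTCA, the FOXO motif TGTTTAC and the E-box CACGTG, searched on both strands, had no match in any of the 9 windows and were found in 1.2%, 3.78% and 6.42% of all promoters. GC content of the 9 windows ran from 54% to 67%, against a median of 51.67% over all promoters, and CpG counts ran from 11 to 28 against a median of 7.

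With metformin, transcripts of Aldh6a1 and Pccb were lower over the mean of the 3 days, and Aldh6a1 was also lower on day 3 alone. The remaining 7 genes were not called in any comparison of the arms. On day 1, 0 of the 9 genes and 0% of all genes were called by limma, and at an unadjusted p under 0.05 the counts were 0 of 9 genes and 1078 of 16031. On day 3, 1 of 9 was called and was lower, against 0.474% of all genes in either direction and 0.424% lower. On day 14, 0 of 9 were called, against 0.281% of all genes, with 3 of 9 at an unadjusted p under 0.05 and 2042 of 16031 overall. For the mean of the 3 days 2 of 9 were called, both lower, against 4.42% of all genes in either direction and 3.77% lower. The median difference of the 9 genes was -0.01, -0.14 and -0.09 on days 1, 3 and 14, and -0.14 over the mean of days, beside medians of 0.00 to -0.02 for all tested genes. In RNA from whole tissue, fewer cells of a type and less RNA per cell cannot be told apart.

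**Figure D1:**
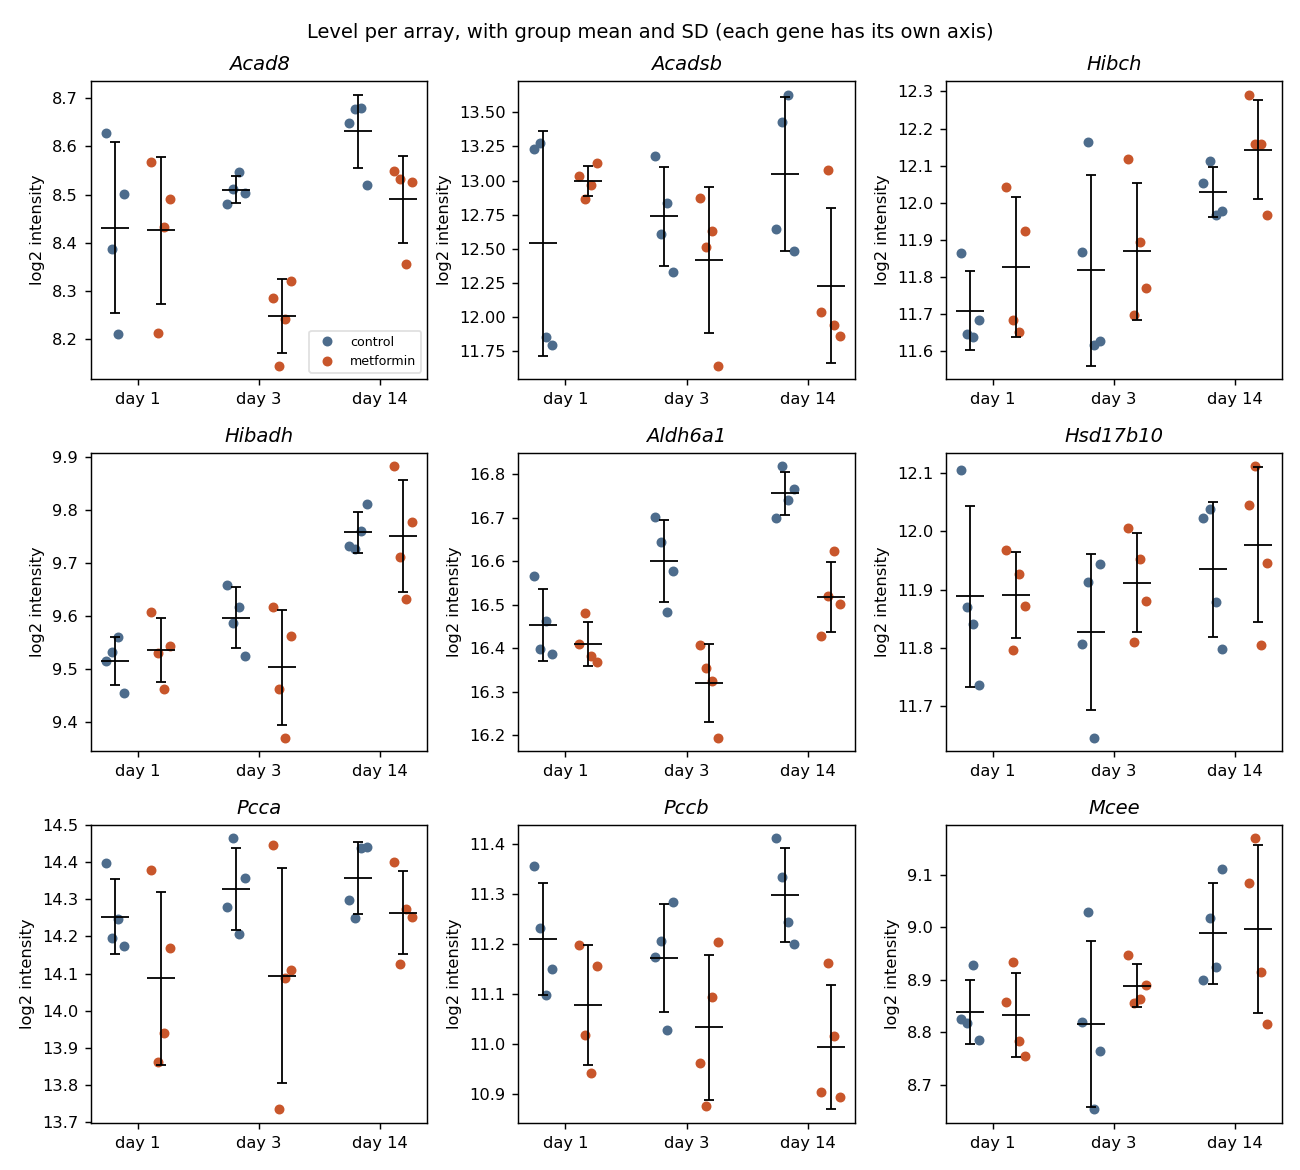
Level of each of the 9 genes on each array (log2 intensity, 1 point per animal) by day and arm, with bars for the group mean and SD of 4 arrays. The arms of Aldh6a1 are apart on days 3 and 14, while those of Hibch, Hsd17b10 and Mcee overlap on each day.

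Aldh6a1 encodes the only CoA-dependent member of the aldehyde dehydrogenase family, which releases propionyl-CoA from the valine route and also acts on the product of thymine breakdown. Its control levels were 16.57, 16.40, 16.46 and 16.39 on day 1, 16.70, 16.64, 16.48 and 16.58 on day 3, and 16.70, 16.82, 16.74 and 16.77 on day 14. With metformin they were 16.41, 16.48, 16.38 and 16.37 on day 1, 16.41, 16.36, 16.32 and 16.19 on day 3, and 16.43, 16.52, 16.62 and 16.50 on day 14. The arms overlapped on day 1, and on days 3 and 14 each metformin array lay below each control array. The difference was -0.04 on day 1 (adjusted p = 0.972), -0.28 on day 3 (SE 0.06, 95% interval -0.41 to -0.15, adjusted p = 0.0449) and -0.24 on day 14 (SE 0.06, adjusted p = 0.0946). The day 3 level was 1.22-fold lower. Over the 3 days the difference was -0.19 (SE 0.04, interval -0.26 to -0.11, adjusted p = 0.00489), or 1.14-fold. In limma's test of whether the effect differed between days Aldh6a1 had an adjusted p of 0.98, and 0 of 9 genes and 0% of all genes were called by that test.

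The call of Aldh6a1 for the mean of days held in each of 24 fits that left out 1 array (adjusted p 0.00238 to 0.0113) and under each of 11 other settings (-0.20 to -0.15, adjusted p 0.00289 to 0.0364). The day 3 call held in 1 of 8 fits that left out an array of that day, the one without control replicate 3 (adjusted p = 0.0195), and in 3 of 12 other settings. The circadian clock score was -0.32 to 1.52 with metformin on day 3 against -0.86 to -0.02 in controls, and 0.12 to 1.16 against -0.51 to 0.28 on day 14. With that score as a covariate the Aldh6a1 difference on day 3 was -0.30 (adjusted p = 0.125), and the call for the mean of days held.

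Pccb encodes the beta subunit of propionyl-CoA carboxylase, which carries the carboxyltransferase site. Its control levels were 11.36, 11.23, 11.10 and 11.15 on day 1, 11.17, 11.21, 11.03 and 11.28 on day 3, and 11.41, 11.33, 11.24 and 11.20 on day 14. With metformin they were 11.20, 11.02, 10.94 and 11.16 on day 1, 10.96, 10.88, 11.09 and 11.21 on day 3, and 10.90, 11.16, 11.02 and 10.89 on day 14. Only on day 14 were the arms apart, with each metformin array below each control array. The difference was -0.13 on day 1 (adjusted p = 0.855), -0.14 on day 3 (adjusted p = 0.606) and -0.30 on day 14 (SE 0.09, 95% interval -0.48 to -0.13, adjusted p = 0.111). For the mean of days it was -0.19 (SE 0.05, interval -0.29 to -0.09, adjusted p = 0.029), a 1.14-fold difference. A different effect between days was not shown for Pccb (adjusted p = 0.993).
The Pccb call was lost without any 1 of 6 arrays: control day 1 replicate 1 (adjusted p = 0.0579), control day 3 replicate 4 (0.0546), control day 14 replicate 1 (0.053), metformin day 1 replicate 3 (0.0533), and metformin day 3 replicates 1 (0.0538) and 2 (0.0509). It was also lost under a second quantile normalization (-0.15, adjusted p = 0.11) and with red cell markers as a covariate (-0.17, adjusted p = 0.0968). Relative to their mean over all arrays, those markers were at 0.20 to 1.36 in day 1 controls and at -0.61 to 0.43 with metformin on day 1.

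Pcca encodes the alpha subunit of the same enzyme, which carries biotin. Its control levels were 14.40, 14.20, 14.25 and 14.17 on day 1, 14.28, 14.47, 14.21 and 14.36 on day 3, and 14.30, 14.25, 14.44 and 14.44 on day 14. With metformin they were 14.38, 13.86, 13.94 and 14.17 on day 1, 14.45, 13.73, 14.09 and 14.11 on day 3, and 14.40, 14.13, 14.28 and 14.25 on day 14. The arms overlapped on each day, and replicate 1 of the metformin arm was its highest array on each day. The same held for Hibch and Hibadh. The differences were -0.17, -0.23 and -0.09 on days 1, 3 and 14, and -0.16 for the mean of days (SE 0.07, interval -0.31 to -0.02, adjusted p = 0.199). Both subunit transcripts were thus below control on each day, and only that of Pccb passed the test. Mcee, the epimerase that acts on the carboxylase's product, had control means of 8.84 ± 0.06 (SD, n = 4), 8.82 ± 0.16 and 8.99 ± 0.10 on days 1, 3 and 14. Its metformin means were 8.83 ± 0.08 and 8.89 ± 0.04 on days 1 and 3, and its day 14 arrays were at 9.08, 9.17, 8.92 and 8.82. Its difference for the mean of days was 0.02 with an interval of -0.07 to 0.12 (adjusted p = 0.836).

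Acad8 encodes the flavoprotein that opens the valine-specific route. Its control levels were 8.63, 8.39, 8.21 and 8.50 on day 1, 8.48, 8.51, 8.55 and 8.50 on day 3, and 8.65, 8.68, 8.68 and 8.52 on day 14. With metformin they were 8.57, 8.21, 8.43 and 8.49 on day 1, 8.29, 8.15, 8.24 and 8.32 on day 3, and 8.55, 8.53, 8.36 and 8.53 on day 14. On day 3 each metformin array lay below each control array, while on days 1 and 14 the arms overlapped. The difference was -0.01 on day 1 and -0.14 on day 14. On day 3 it was -0.26 (SE 0.08, 95% interval -0.43 to -0.09), an unadjusted p of 0.00441 and an adjusted p of 0.173. For the mean of days it was -0.14 (SE 0.05, interval -0.23 to -0.04, adjusted p = 0.111). Without control day 1 replicate 3, the lowest array of its group, the mean of days passed the test (-0.16, adjusted p = 0.0456).

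Arms without overlap were also counted. On day 1 this held, with metformin lower, for 0 of 9 genes beside 2.8% of all genes. On day 3 it held for Acad8 and Aldh6a1, 2 of 9 beside 4.2% of all genes, and on day 14 for Aldh6a1 and Pccb, 2 of 9 beside 4.53%. In none of the 9 did the metformin arm lie wholly above the control arm on any day, which 1.76%, 2.17% and 1.6% of all genes did on days 1, 3 and 14.

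**Figure D2:**
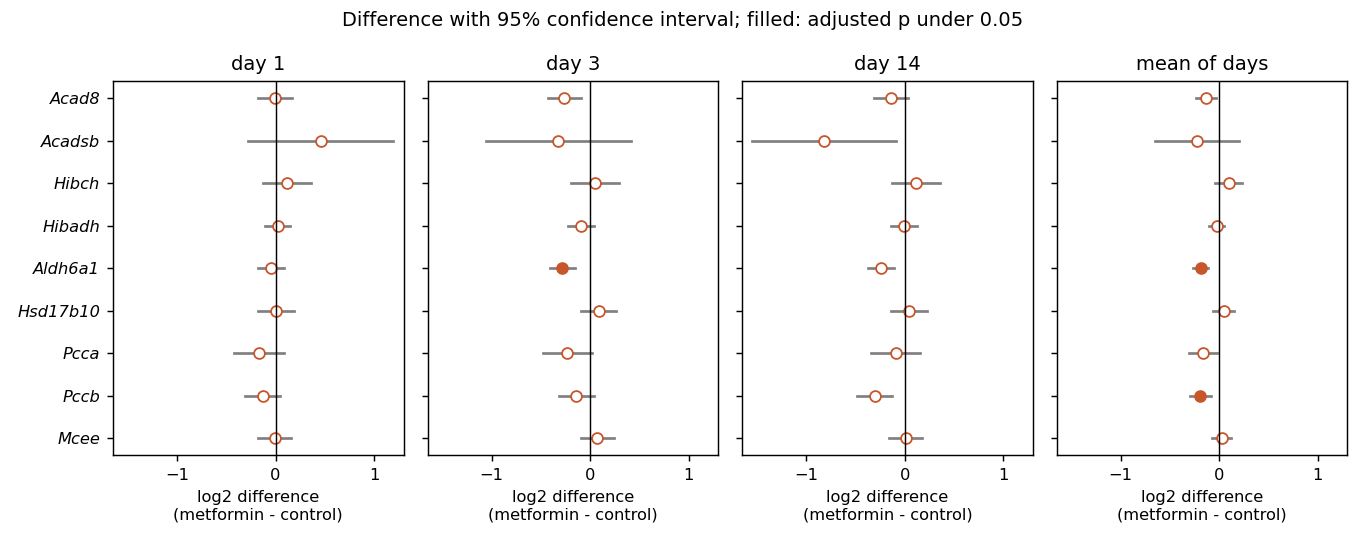
Difference of each gene (metformin minus control, log2, point) with its 95% confidence interval (line), by day and averaged over the days. Filled points passed the test and are Aldh6a1 on day 3 (-0.28) and Aldh6a1 and Pccb for the mean of days (-0.19 each), while the intervals of Acadsb are the widest of the 9.

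Hibch and Hibadh, which act between Acad8 and Aldh6a1 in the valine route, were not called in either direction. Hibch, a hydrolase that removes CoA, had control means of 11.71 ± 0.11 (SD, n = 4), 11.82 ± 0.26 and 12.03 ± 0.07 on days 1, 3 and 14. Its metformin means were 11.83 ± 0.19, 11.87 ± 0.18 and 12.14 ± 0.13. Its metformin mean lay above the control mean on each day, by 0.12, 0.05 and 0.12, with an interval of -0.04 to 0.23 for the mean of days (0.09, adjusted p = 0.493). Hibadh, an NAD-dependent dehydrogenase, had control means of 9.52 ± 0.04, 9.60 ± 0.06 and 9.76 ± 0.04 and metformin means of 9.54 ± 0.06, 9.50 ± 0.11 and 9.75 ± 0.11. Its difference for the mean of days was -0.03 with an interval of -0.10 to 0.05 (adjusted p = 0.753), one of the narrowest intervals of the 9. Under cyclic loess and a second quantile normalization this small difference changed sign (0.01 and 0.02).

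Hsd17b10, the dehydrogenase of the isoleucine route, is also a subunit of mitochondrial ribonuclease P, which cuts tRNAs out of the mitochondrial transcript. Its control means were 11.89 ± 0.16 (SD, n = 4), 11.83 ± 0.13 and 11.93 ± 0.12, and its metformin means 11.89 ± 0.07, 11.91 ± 0.09 and 11.98 ± 0.13. The difference for the mean of days was 0.04 with an interval of -0.06 to 0.15 (adjusted p = 0.706), and the group means spanned 0.15 in all, the least of the 9. Its partners in that complex, Trmt10c and Prorp, differed by 0.02 (adjusted p = 0.897) and -0.02 (adjusted p = 0.873), and neither was called on any day; their signs changed in some settings.

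Acadsb, which opens the isoleucine-specific route and also accepts other short branched acyl-CoAs, varied more among animals than nearly all genes. Its control levels were 13.23, 13.27, 11.86 and 11.80 on day 1, 13.18, 12.61, 12.84 and 12.33 on day 3, and 12.64, 13.43, 13.63 and 12.49 on day 14. With metformin they were 13.04, 12.86, 12.96 and 13.13 on day 1, 12.87, 12.52, 12.63 and 11.65 on day 3, and 12.04, 13.07, 11.94 and 11.86 on day 14. Day 1 controls fell into a high and a low pair, and 3 of 4 metformin arrays on day 14 lay below each control array. The SD within groups was 0.54, at the 99.1 percentile of tested genes, where the median gene had 0.153 and Aldh6a1 0.077. The differences were 0.46 on day 1, -0.32 on day 3 and -0.82 on day 14 (SE 0.35, 95% interval -1.55 to -0.08, adjusted p = 0.324). The test of a difference between days gave an adjusted p of 0.993. For the mean of days the interval ran from -0.65 to 0.20 (adjusted p = 0.604), so that a change of the size seen in Aldh6a1 could not have been resolved in Acadsb.

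The dimmer Acadsb cluster varied in the same animals. After subtraction of group means, the clusters correlated over 24 arrays with Pearson r = 0.797 (permutation p = 0.0007) and Spearman rho = 0.766 (permutation p = 0.001). Without the 2 arrays farthest from the median of the brighter cluster, r was 0.753. Whether the clusters share probe sequence was not tested. Among 6 neighbouring genes on the chromosome, r with Acadsb was 0.51 for Hmx2, 0.18 for Bub3 and 0.16 for Pstk, and between -0.06 and 0.01 for Cpxm2, Ikzf5 and C1h10orf88. These are given as a description.

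**Figure D3:**
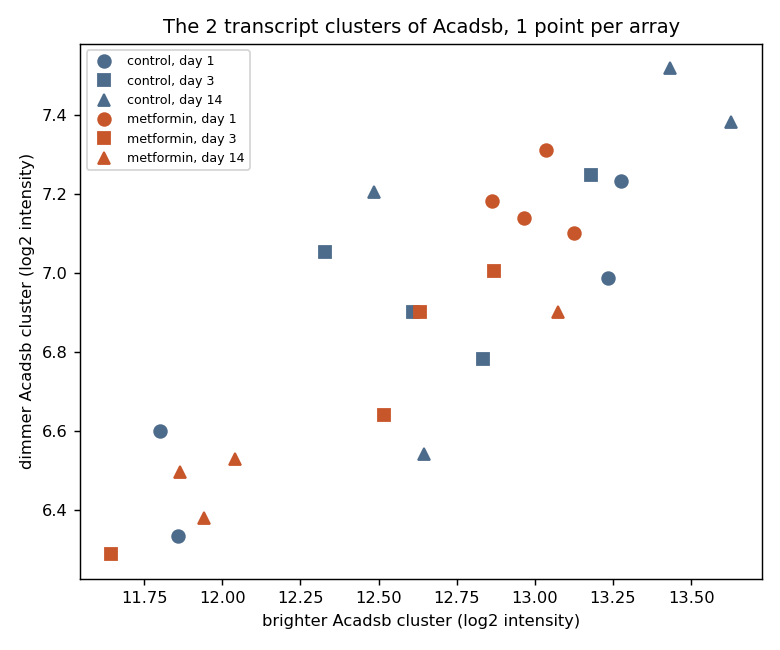
Level of the dimmer against the brighter Acadsb cluster (log2 intensity), 1 point per array, with colour for arm and shape for day. Day 1 controls form a pair at 13.23 and 13.27 and a pair at 11.80 and 11.86 on the brighter cluster, and the dimmer cluster separates the same animals.

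Group means were also compared across days within an arm. In controls, 9 of 9 genes had their highest mean on day 14, beside 39.8% of all tested genes. For 6 of them (Acad8, Acadsb, Hibch, Hibadh, Aldh6a1 and Pcca) the means increased from day 1 over day 3 to day 14, beside 24.4% of all tested genes. With metformin, 7 of 9 had their highest mean on day 14 (37% of all tested genes) and 4 ran in that order (Hibch, Hsd17b10, Pcca and Mcee, beside 18.2%), while Acadsb and Pccb were lower on day 14 than on day 1, by values that did not pass the test (-0.77 and -0.08). These counts are a description. Of the 9, only Aldh6a1 passed the test for day 14 minus day 1 in controls, where 0.324% of all genes were called higher; this contrast was added after seeing the data. It rose by 0.30 (SE 0.06, adjusted p = 0.032), with each day 14 control above each day 1 control, and with metformin the same difference was 0.11 (adjusted p = 0.528). These comparisons share the day 14 controls with the comparison of arms on that day. Hibadh differed by 0.24 in controls (adjusted p = 0.0935) and 0.21 with metformin (adjusted p = 0.136), and Hibch by 0.32 in both arms (adjusted p = 0.283 and 0.258). The F statistics over the 3 days called 0 of 9 genes in either arm, beside 0.162% of all genes in controls and 0.212% with metformin; the smallest unadjusted p was that of Aldh6a1 in controls (0.000385, adjusted 0.116) and that of Hibadh with metformin (0.00112, adjusted 0.12). The animals' age, handling and day of collection go with the day and cannot be told apart from it.
The Aldh6a1 rise in controls was lost without day 1 replicate 2 (adjusted p = 0.101), 3 (0.0771) or 4 (0.141), and without day 14 replicate 1 (0.0566), 2 (0.125), 3 (0.0848) or 4 (0.0791), with a size of 0.28 to 0.34 over the fits that left out 1 array.

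Among animals of the same group the 9 genes varied together weakly. With group means subtracted, 32 of 36 pairs had a positive Pearson r over 24 arrays, and the median was 0.289. Each gene's median r with all tested genes lay between -0.03 and 0.03. The 95th percentile of r with all tested genes lay between 0.36 (Aldh6a1) and 0.54 (Mcee), so a pair at 0.289 is within the spread of other genes. By permutation, adjusted over the 36 pairs, 1 pair passed: Hibch and Pcca at r = 0.698 (adjusted p = 0.049; rho = 0.608, adjusted p = 0.174). Without the 2 arrays farthest from the median of Hibch, chosen on that gene alone, its r was 0.63. In both genes replicate 1 of the metformin arm was the highest of its group on each day, and its part in this r was not tested. By Spearman's rho 0 pairs passed, and 9 pairs had an unadjusted Pearson p under 0.05. The subunits Pcca and Pccb, which form one enzyme, had r = 0.277 (p = 0.307) and rho = 0.314. The lowest value was -0.239, for Acad8 and Aldh6a1, the early and the late enzyme of the valine route. After a second quantile normalization 0 pairs passed, with a median r of 0.306. Points share array-wide effects of labelling and scaling, whose part was not tested.

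**Figure D4:**
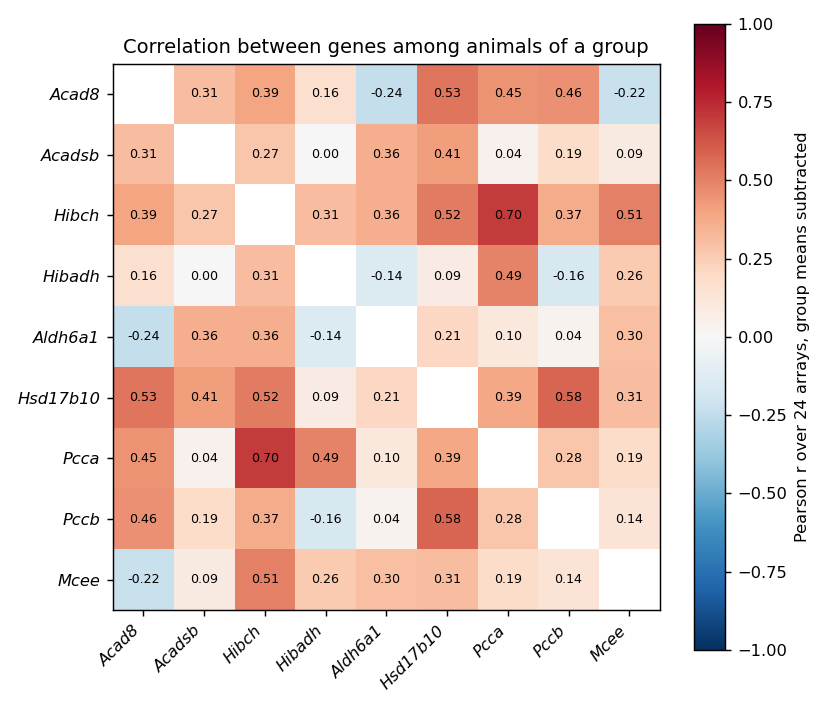
Pearson r between each pair of the 9 genes over 24 arrays, after subtraction of group means (colour scale from -1 to 1, r printed in each cell). Hibch and Pcca have the highest value (0.70), and 32 of 36 pairs are above 0.

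The genes whose levels followed each enzyme most closely over the 24 arrays, by Pearson r after subtraction of group means, are given as a description over 16030 other genes. Pccb was followed by Etfb (r = 0.78), a subunit of the electron transfer flavoprotein, Ciita (0.77) and Gcdh (0.75), glutaryl-CoA dehydrogenase. Acad8 was followed by Dipk2a (0.87), Oat (0.82), ornithine aminotransferase, and Pmpca (0.81), a subunit of the mitochondrial processing peptidase. For Aldh6a1 the leading genes were Prr16 (0.76), Atp9a (0.75) and Lrg1 (0.74), and for Pcca they were Hif1a (0.80), Synj2 (0.77) and Masp1 (0.76). Hibch was followed by Clip4 (0.89), Uqcc1 (0.88) and Sdccag1-ps1 (0.85), Hibadh by Sh3glb1 (0.80), Ghitm (0.77) and Sytl2 (0.76), and Hsd17b10 by Fbxo22, Cwc15 and Acss2 (0.82 each). Acadsb was followed by Kiaa1191 (0.77), Fam8a1 (0.76) and Tmem132d (0.75), and Mcee by Rps10l6 (0.82), Phb1-ps13 (0.81) and Mrps30 (0.80).

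Other genes around these enzymes, in 6 lists, set the 9 in their pathway. Of 15 downstream and shared enzymes and cofactor handlers of the same routes, 0 were called by limma on any day or for the mean of days, and their median difference for the mean of days was -0.01. Of all tested genes 4.42% were called for the mean of days. At an unadjusted p under 0.05 for the mean of days were 3 of 15, beside 2931 of 16031 tested genes. Mmut, the cobalamin-dependent mutase that follows Mcee, differed by -0.16 (adjusted p = 0.0754) and passed without metformin day 3 replicate 1 (adjusted p = 0.0346). Hlcs, which attaches biotin to the carboxylases, differed by -0.14 (adjusted p = 0.0966) and passed without metformin day 14 replicate 1 (adjusted p = 0.0434). Acat1 and Echs1, the thiolase and the hydratase that the routes use, differed by -0.11 (adjusted p = 0.184) and -0.10 (adjusted p = 0.323) for the mean of days. On day 3 Echs1 differed by -0.33 (SE 0.09, adjusted p = 0.0999), with each metformin array below each control array, and on days 1 and 14 by 0.02 and 0.01. Acat1 had each metformin array below each control array on day 14 (-0.20, adjusted p = 0.283). Mmut differed by -0.32 on day 3 (adjusted p = 0.101), where its arms overlapped. The test of a difference between days did not call Echs1 (adjusted p = 0.929).

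Of 13 tested genes of the shared upstream steps and the leucine branch, 6 were called lower and 0 higher for the mean of days. Of all tested genes 3.77% were called lower. In the list 11 lay below 0 and 2 above, with a median difference of -0.17. An unadjusted p under 0.05 was reached by 10 of 13, beside 2931 of 16031 tested genes. The mitochondrial transaminase Bcat2 fell by 0.53 (difference -0.53, adjusted p = 0.000171), the leucine-branch dehydrogenase Ivd differed by -0.40 (adjusted p = 0.000111), the decarboxylase subunit Bckdha by -0.30 (adjusted p = 0.00437) and the acyltransferase core Dbt by -0.26 (adjusted p = 0.00476). Ppm1k, whose product dephosphorylates the branched-chain ketoacid dehydrogenase, and Mccc2 were the other called genes (-0.39 and -0.30). On single days Bcat2, Ppm1k and Ivd were called on day 3 (-0.76, -0.63 and -0.63) and Bcat2 and Ivd on day 14 (-0.56 and -0.49). With 1 array of the day left out, the call of Ppm1k on day 3 held only without control replicate 3 and that of Bcat2 on day 14 only without metformin replicate 3, of 8 fits each (adjusted p up to 0.154 and 0.127). That of Ivd on day 14 missed the threshold when replicate 2 of either arm was left out (adjusted p of 0.0622 without the control and 0.0676 without the metformin array). Over 12 other settings the day 3 calls of Bcat2 and Ivd held in 11 each and that of Ppm1k in 6, and the day 14 calls of Bcat2 and Ivd in 6 and 7. The Ivd and Bcat2 calls of day 14 were both lost under second quantile normalization (adjusted p = 0.0974 and 0.114), cyclic loess (0.0545 and 0.0964) and the clock covariate (0.0683 and 0.101). When the arrays of a day were fitted alone, each of these day calls was lost. For Ivd, Bcat2 and Ppm1k on day 3 limma then gave adjusted p = 0.0729, 0.153 and 0.261. For Ivd and Bcat2 on day 14 it gave 0.206 and 0.224. The size of the Aldh6a1 and Pccb differences, -0.19 each, was below that of the 6 called genes upstream, a description with no test of the difference between genes.

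Among relatives of the 2 acyl-CoA dehydrogenases in the set, 1 of 10 tested genes was called for the mean of days, beside 4.42% of all genes. This was Etfb (-0.19, adjusted p = 0.0363), part of the flavoprotein that takes electrons from Acad8 and Acadsb, and the call was lost in 12 of 24 fits that left out 1 array and in 7 of 11 other settings. Acadvl, of long-chain fatty acid oxidation, differed by 0.15 (adjusted p = 0.131), Etfdh by 0.10 (adjusted p = 0.346) and Gcdh by -0.07 (adjusted p = 0.533). Of the 3 other biotin carboxylases, pyruvate carboxylase (Pc) was lower on day 3 (-0.45, adjusted p = 0.00341), on day 14 (-0.43, adjusted p = 0.01) and averaged over the days (-0.36, adjusted p = 3.76e-05). Its day 14 call was lost under second quantile normalization (-0.35, adjusted p = 0.0653), and both day calls were lost when the arrays of that day were fitted alone (adjusted p = 0.13 on day 3 and 0.226 on day 14). Acaca and Acacb, the acetyl-CoA carboxylases, differed by 0.08 and -0.09 (adjusted p = 0.458 for Acacb, higher for Acaca), and neither was called. Of 8 regulators, 7 lay below 0 for the mean of days and 3 of these were called lower, beside 3.77% of all genes. The 3 were Foxo1 (-0.42, adjusted p = 0.000788), Ppargc1a (-0.52, adjusted p = 0.0131) and Esrrg (-0.20, adjusted p = 0.0419). Foxo1 alone kept its call of these 3 when the clock score was a covariate, and the Esrrg difference was 0.00 when all its clusters were averaged. The Esrrg call held in 8 of 24 fits that left out 1 array (adjusted p 0.0202 to 0.0782). Klf15, a transcription factor that drives branched-chain amino acid breakdown in the heart, differed by -0.24 (adjusted p = 0.304). In controls, Bcat2, Dbt, Ivd and Pc also rose between day 1 and day 14, by 0.58, 0.51, 0.52 and 0.56 (adjusted p = 0.0311, 0.0114, 0.0113 and 0.00104). Of all genes 0.324% were called higher there, and these genes were picked after their values were seen. With metformin their means rose too, from 9.38 to 9.67, 14.72 to 15.26, 13.37 to 13.49 and 7.31 to 7.64.

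**Figure D5:**
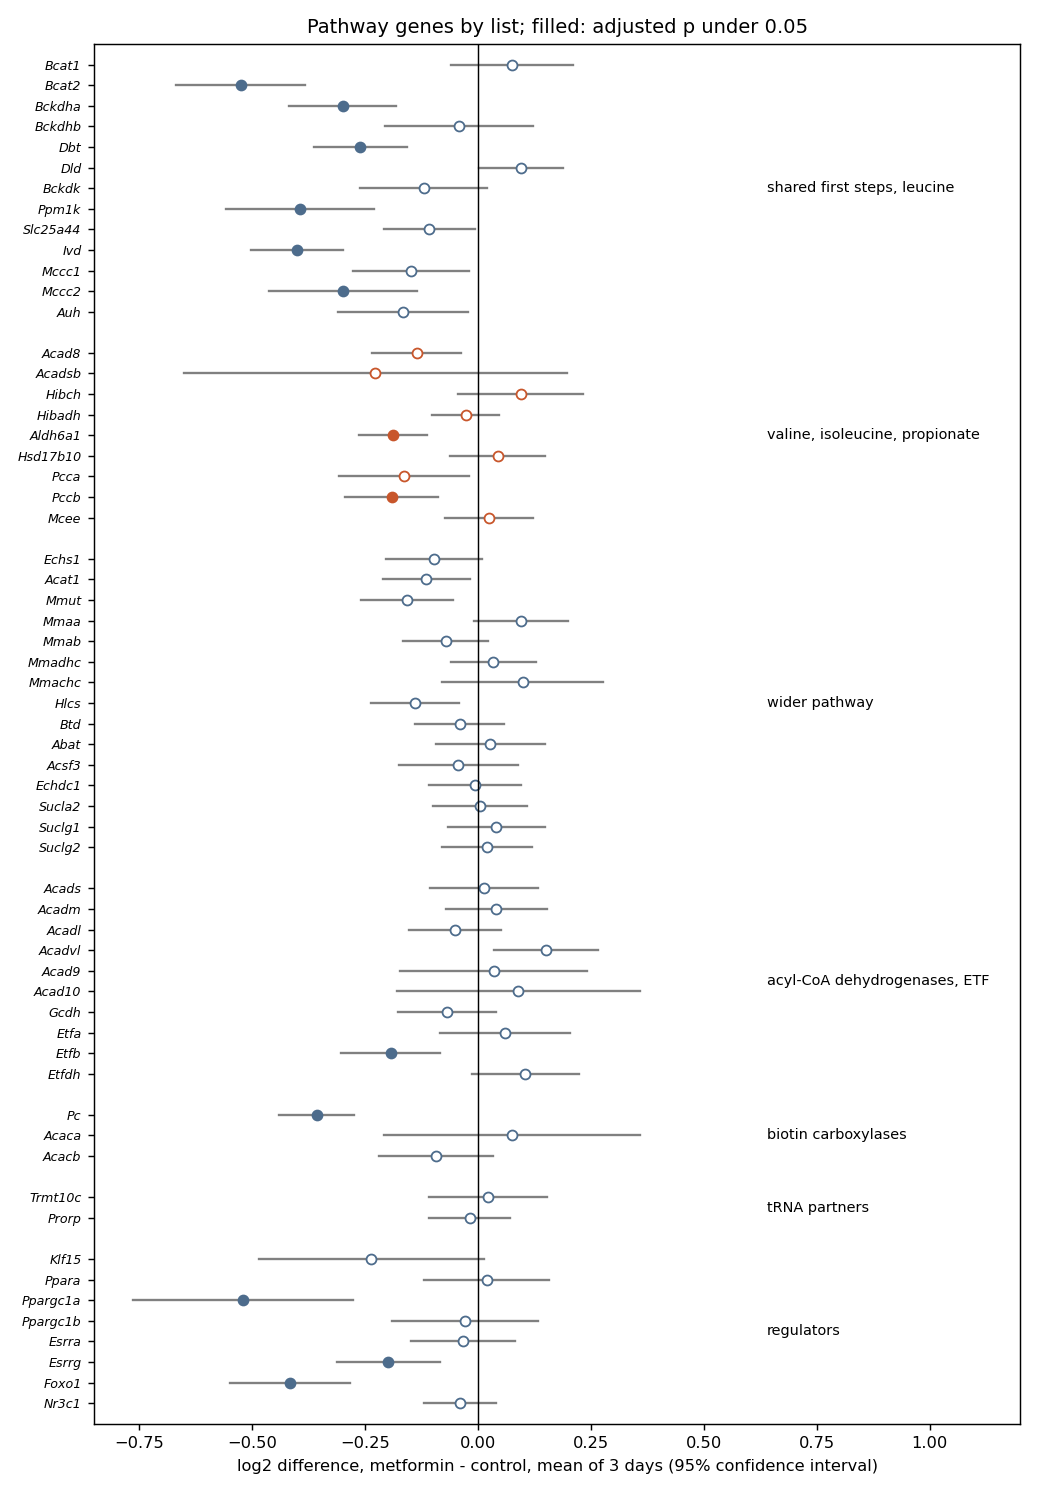
Difference for the mean of the 3 days (metformin minus control, log2, point) with its 95% confidence interval (line) for the 9 genes, in orange, and for the other genes of the pathway by list, in blue. Filled points passed the test: 2 of 9 in the set, 6 of 13 in the shared upstream and leucine list, and 0 of 15 in the wider pathway list, beside 4.42% of all tested genes.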

How the data were processed

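The authors normalized the arrays and deposited linear intensity values, 1 per array and transcript cluster; RMA is named per the submitters' processing notes, with version and settings not given in the sources used here. The highest value on each array lay at 999433 to 999974, so the scale is not the scanner's and folds may be stretched. Since the planned tests assumed log2 values, log2 was taken. Of 68842 clusters, 23446 had 1 gene symbol, 505 several and 44891 none in the platform annotation; symbols were updated through RefSeq (GRCr8, names only), and all 9 genes matched by gene ID. Genes above the array median on 4 or more arrays were tested. All 24 arrays entered 1 fit, with a mean for each group, in limma 3.58.1 (R 4.3.3, statmod 1.5.0); correlations used 100000 resamples within groups (Python 3.11.15). The procedure was tested on simulated data, and the outcome of that is not given here. Named genes were the 9, up to 4 genes of each list with the smallest p for the mean of days, any list gene called on a single day, the 3 genes closest to each of the 9, and, chosen after their values were seen, the remaining called genes of a list, and genes called in controls between days. The 9 genes, the lists and the tests were chosen with earlier results of these data known. Alternatives covered scaling, filter, offset, clusters, variance model, replicate block, covariates and left-out arrays. Nothing in the labels says how the replicate numbers relate across arms. The promoters are RefSeq's, GRCr8.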

Additional observations from a re-analysis of the deposited data

Results flagged for a closer look

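Of 54 combinations of gene and group, 2 held an array that stood apart from the other 3 by Dixon's criterion, which chance meets in about 1 in 20 groups. Acad8 on metformin day 14 replicate 3 was at 8.36, where the other arrays of the group lay at 8.53 to 8.55 (gap over range 0.884). Acadsb on metformin day 14 replicate 2 was at 13.07, where the others lay at 11.86 to 12.04 (gap over range 0.853).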

How the results depend on the processing

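Of 36 differences of the 9 genes, 392 of 423 values under other settings kept direction and side of the threshold, 14 lost their call and 17 changed sign; of 432 values with 1 array left out, 393 kept both, 13 lost a call, 1 gained one and 25 changed sign. The count called on day 3 (1, Aldh6a1) was 0 under a second quantile normalization (adjusted p = 0.184), centring of arrays on their median (0.0506), cyclic loess (0.0624), no filter on low values (0.0787), the replicate block (0.119), the day 3 arrays alone (0.318), removal of the 2 arrays high in muscle or blood markers (0.16), and the red cell (0.0569) or clock (0.125) covariate. The count for the mean of days (2) was 1, Aldh6a1, under second quantile normalization, cyclic loess, removal of those 2 arrays and either covariate, where Pccb gave adjusted p of 0.11, 0.0962, 0.0558, 0.0968 and 0.0712. The count for control day 14 minus day 1 (1, Aldh6a1) was 0 under second quantile normalization (adjusted p = 0.0865), cyclic loess (0.09) and no filter (0.057). It was also 0 with removal of the 2 arrays (0.28, adjusted p = 0.137) and with the red cell covariate (adjusted p = 0.11). With 1 array left out these counts ran from 0 to 1, 1 to 3 and 0 to 1. Pairs passing by Pearson r fell from 1 to 0 under second quantile normalization. The replicate numbers are not stated to pair animals, and deviations of same-numbered arrays of a day correlated at -0.148 to 0.11. These values over all tested genes cannot show whether same-numbered animals were paired. The block left the count for the mean of days at 2. As coded, it compared days at replicate 1 only. Its Aldh6a1 value for control day 14 minus day 1 (0.17) is therefore not the difference of group means, which was 0.30, and does not bear on that call. Of the list genes' day calls, the block ended those of Ppm1k on day 3 (adjusted p = 0.0905) and of Bcat2 (0.122) and Ivd (0.0595) on day 14. Removal of the 2 arrays high in muscle or blood markers ended the call of Ppm1k on day 3 (-0.50, adjusted p = 0.152). For the mean of days it ended those of Etfb (-0.19, adjusted p = 0.0699) and Esrrg (-0.20, adjusted p = 0.0564).

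Differences near 0 changed sign. Under second quantile normalization these were Acad8 (0.022) and Mcee (0.025) on day 1, Hibadh on day 14 (0.075) and over the mean of days (0.024), and Prorp (0.0097). Under cyclic loess they were Acad8 (0.013) and Mcee (0.012) on day 1, Hibadh on day 14 (0.064) and over the mean of days (0.014), and Prorp (0.0065). Centring turned Mcee on day 14 (-0.0058). Removal of the 2 arrays turned Acad8 (0.018), Hibadh (-0.00014) and Hsd17b10 (-0.048) on day 1, the red cell covariate Acad8 (0.021), Hsd17b10 (-0.0096) and Mcee (0.011) on day 1, and the clock covariate Hsd17b10 on day 1 (-0.0061) and Hibadh on day 14 (0.014). With 1 array left out, differences on day 1 ran from -0.079 to 0.065 for Acad8, -0.0039 to 0.045 for Hibadh, -0.048 to 0.075 for Hsd17b10 and -0.0404 to 0.023 for Mcee. They ran from -0.032 to 0.166 for Hibch on day 3, and on day 14 from -0.051 to 0.032 for Hibadh, -0.0033 to 0.0998 for Hsd17b10 and -0.0496 to 0.068 for Mcee. For the mean of days they ran from -0.011 to 0.148 for Acaca, -0.023 to 0.063 for Trmt10c and -0.042 to 0.0011 for Prorp. The cause was not tested.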
